A study of Mus musculus with 4 samples.

Results

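The cytosolic ribosomal protein genes, whose products form the protein part of the large and the small subunit of the ribosome, were taken from a table of 30637 genes by their symbols. The rule kept symbols of the Rpl and Rps series together with Rplp0, Rplp1, Rplp2 and Rpsa, and left out S6 kinases and symbols marked as pseudogenes. It found 87 genes, 52 of the large and 35 of the small subunit. Of these, 5 carry a pseudogene annotation in Gencode M21 although their symbols do not show it: Rps3a2, Rps3a3, Rps4l, Rpl6l and Rpl32l. The genes were measured in poly(A)-selected RNA from the telencephalon, the forebrain region that gives rise to cortex and striatum, of C57BL/6 mouse embryos at embryonic day 13. There were 2 control libraries (control 1 and control 2) and 2 libraries from conditional knockouts of Pd1 (Pd1CKO 1 and Pd1CKO 2). Controls are called wild type in the sample labels, while the design text gives them as Pd1fl/fl, a floxed genotype without the deletion. The study was about the action of Pd1 on neural progenitors. The sources used here do not name the Cre driver of the knockout. Values are FPKM, fragments scaled by exon length and by library depth, and they are listed below in the order control 1, Pd1CKO 1, control 2 and Pd1CKO 2 unless a sentence says otherwise.

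The libraries implied 18573300, 18735600, 16197400 and 18105000 counted fragments. They stood apart by the replicate number in their labels. Over the 13927 genes whose mean reached 1 FPKM, Pearson correlations of log2(FPKM + 1) were 0.978 within number 1, 0.987 within number 2 and 0.912 to 0.916 between numbers. The sources used here do not say what the number stands for, nor that the libraries came from separate litters, so the p-values reflect the spread between these samples alone. Pdcd1, the gene that Pd1 was read as, had 13 fragments in control 2 and 0 in the other 3 libraries, each of which allows up to 3 fragments, so it did not check the genotype labels. Xist was at 34.7, 61.2, 54.0 and 0.0031 FPKM and the Y-linked Eif2s3y at 0, 0, 0.015 and 19.2 FPKM, so that Pd1CKO 2 differed in sex-linked expression from the others. The telencephalic gene Emx1 was present in every library, at 54.1, 65.2, 13.8 and 16.3 FPKM. In bulk tissue, fewer cells of a type and less RNA per cell cannot be told apart.

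Ribosomal proteins are made in nearly equal numbers, since each mature ribosome holds 1 copy of most of them, and surplus protein is degraded. Their mRNAs are short, abundant and long-lived, and many begin with a 5′ terminal oligopyrimidine (TOP) tract, a run of C and T at the start site through which mTORC1 and Larp1 adjust their translation to growth signals. Mammalian genomes also hold many processed pseudogenes of these genes, copies of the mRNA inserted elsewhere in the genome, whose fragments are hard to assign.

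Start sites are shown for 7 genes because TOP tracts are the regulatory feature that marks this family. Each run holds the 15 bases before and the first 15 bases from the RefSeq start site (GRCm38.p6), 5′ to 3′ on the gene's strand, with the pyrimidine tract in capitals. The first 4 are short genes that stood higher in Pd1CKO 1 than in control 1, the next 2 are longer genes that stood lower there, and Rpl24 is the most weakly expressed of the 84 members that passed a filter of a mean of 1 FPKM.
Rpl38, chr11:114668565-114668594, plus strand: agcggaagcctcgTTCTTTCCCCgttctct
Rps21, chr2:180257364-180257393, plus strand: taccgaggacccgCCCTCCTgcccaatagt
Rps27, chr3:90213634-90213663, minus strand: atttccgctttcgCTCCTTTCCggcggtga
Rpl35, chr2:39005117-39005146, minus strand: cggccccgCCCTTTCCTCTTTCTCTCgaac
Rps18, chr17:33955651-33955680, minus strand: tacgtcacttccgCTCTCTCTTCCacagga
Rpl7a, chr2:26910792-26910821, plus strand: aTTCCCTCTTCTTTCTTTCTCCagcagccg
Rpl24, chr16:55966260-55966289, plus strand: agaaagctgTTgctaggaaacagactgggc
RefSeq entries matched 63 of the 87 genes. The search took the longest run of C and T, on the gene's own strand, with at least 1 base within 5 bases of the start site, and 26 of the 63 (41.3%) had a run of at least 7 bases. Among 9169 other tested protein-coding genes the share was 13.4%. The start base itself was C in 33.3% of the members and 14.9% of the other genes. As the Rpl35 and Rpl7a lines show, a tract occurred both in genes that were higher and in genes that were lower in Pd1CKO 1. The lines shown are no typical sample. Other short genes that stood higher there, Rps28, Rpl37, Rpl39 and Rpl41, had runs of 4, 3, 5 and 3 bases. The median log2 ratio of Pd1CKO 1 to control 1 was 0.10 in the 26 genes with a tract and 0.05 in the 37 without. A run of these letters is a description of the window and not a measured TOP element.

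The ribosomal protein genes were among the most abundant mRNAs of the telencephalon. They held 6.47, 6.87, 5.93 and 5.95% of the summed FPKM, and 26 of the 100 genes with the highest mean FPKM were members. Their median was 158, 162, 117 and 120 FPKM, against 6.77, 7.16, 7.06 and 7.08 FPKM over all tested genes. The summed FPKM of the large subunit over that of the small one was 1.20, 1.23, 1.25 and 1.22. Both libraries of number 1 were above both of number 2 in the share, and the control and Pd1CKO libraries overlapped.

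**Figure D1:**
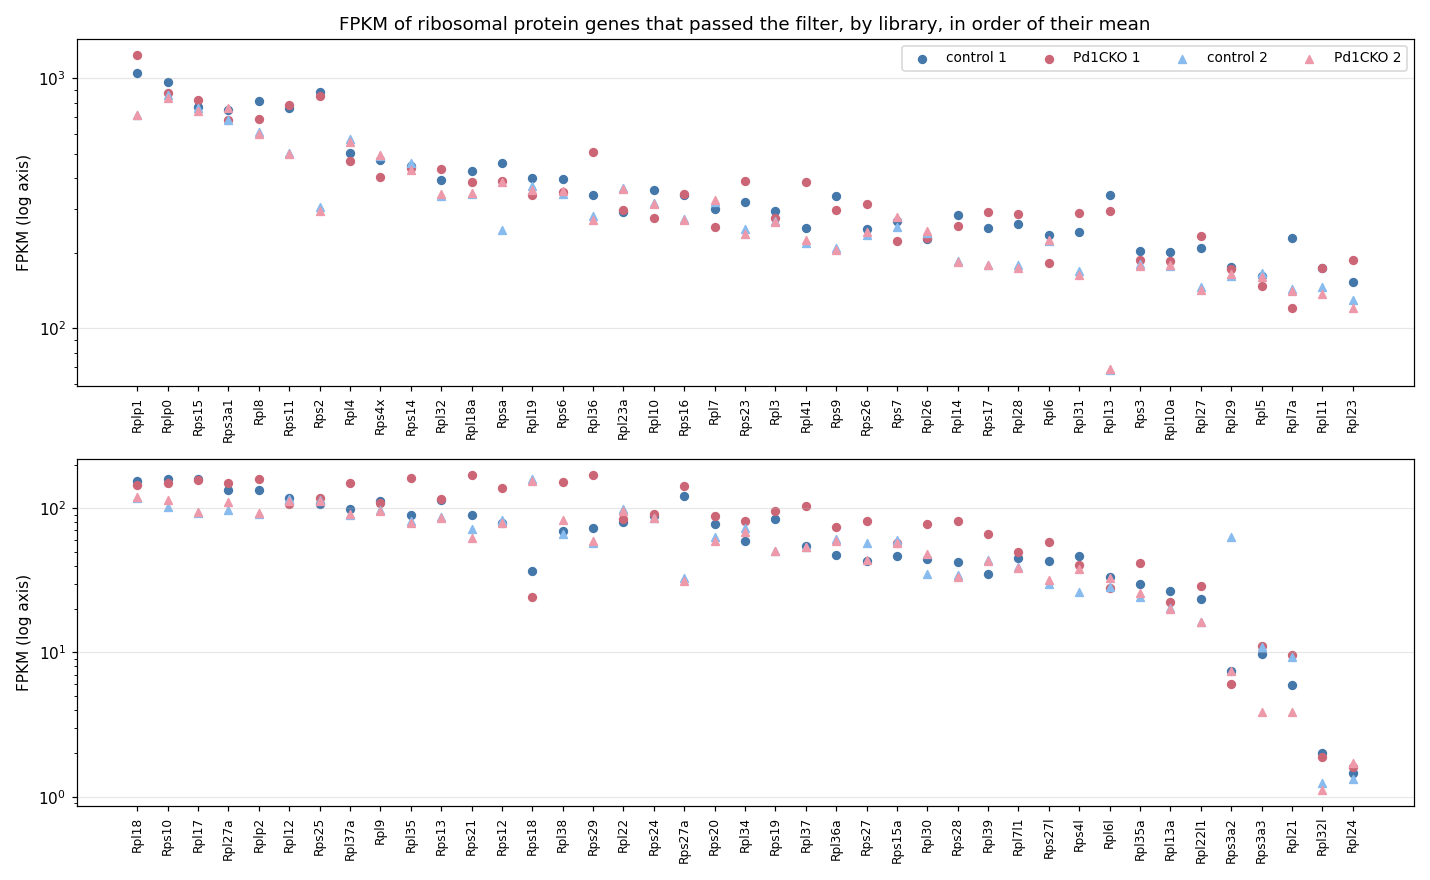
FPKM (log axis) of 82 ribosomal protein genes that passed the filter, in order of their mean from the upper left to the lower right; circles are number 1, triangles number 2, blue control and red Pd1CKO. Rplp1 leads, Rps18, Rpl13, Rps2 and Rps27a separate by number, Rps3a2 is high in control 2 alone, and many genes of the lower row have Pd1CKO 1 on top.

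Of the 3 stalk proteins, which recruit elongation factors to the large subunit, Rplp1 and Rplp0 led the order by mean FPKM and Rplp2 lay in its middle. Rplp1 was at 1055, 1244, 716 and 711 FPKM, and Rplp0, the stalk base, at 968, 871, 858 and 837 FPKM. Rplp2, the partner of Rplp1, was at 132, 160, 90.4 and 91.8, below both in every library on the FPKM scale. Rps15, a protein of the small subunit head, followed with 768, 821, 762 and 738 FPKM. Rplp1 and Rplp0 did not keep their order across libraries, since Rplp1 was above Rplp0 in number 1 and below it in number 2. Of the 87 genes, 70 had a mean above 50 FPKM, 54 above 100 FPKM and 7 below 10 FPKM. The low end held Rpl24 at 1.46, 1.61, 1.32 and 1.72 FPKM, the pseudogene Rpl32l at 2.02, 1.87, 1.24 and 1.11 FPKM and Rpl21 at 5.91, 9.64, 9.24 and 3.87 FPKM. Rpl24 and Rpl21 encode constitutive ribosomal proteins, and for both most fragments of the family were listed under near-identical copies, as given below. The Rpl24 family stayed low even with those copies summed.

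Genes known from inherited disease or mouse mutants were spread over the range, from Rpl24, mutated in the belly spot and tail mouse, to Rpsa, given with its copies below. Rps19, Rpl5 and Rpl11 are mutated in Diamond-Blackfan anaemia, and the proteins of the latter pair bind Mdm2 with 5S rRNA. Rps19 was at 83.7, 95.8, 50.05 and 50.3 FPKM, Rpl5 at 162, 147, 167 and 161 FPKM and Rpl11 at 174, 174, 147 and 137 FPKM. Rps19 and Rpl11 were higher in both libraries of number 1, whereas Rpl5 was lowest in Pd1CKO 1. Rps6, the substrate of the S6 kinases, was at 394, 353, 345 and 354 FPKM, with control 1 highest. Rps20, mutated in a dark-skinned mouse strain, was at 77.2, 88.4, 62.9 and 59.2 FPKM. Rpl38, needed for axial patterning in the tail-short mouse, was at 69.1, 152, 66.6 and 82.7 FPKM, with Pd1CKO 1 far above the rest.

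The paralogs Rpl3l, Rpl39l and Rpl36al were weak or absent here. Rpl3l, expressed in striated muscle, was at 0.066, 0.032, 0.038 and 0 FPKM, where its partner Rpl3 was at 294, 276, 269 and 266 FPKM. Rpl39l, known from testis, had 0.065 and 0.19 FPKM in number 1 and was listed at 0 in number 2, which allows up to 3 fragments per library, while Rpl39 was at 34.8, 65.7, 43.4 and 43.2 FPKM. Rpl36al was at 0.76, 0.83, 0.091 and 0.37 FPKM beside 47.7, 74.5, 60.6 and 59.4 FPKM for Rpl36a. These 3 genes, Rpl3l, Rpl39l and Rpl36al, did not pass the filter, which left 84 members tested.

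The other paralogs were well expressed. Rpl22l1, which Rpl22 holds down in lymphoid cells, was at 23.3, 29.0, 16.2 and 16.1 FPKM, and Rpl22 at 80.2, 83.4, 98.8 and 96.0 FPKM. Number 2 was thus below number 1 for Rpl22l1 and above it for Rpl22, and the fit called Rpl22l1 alone (log2 difference of number 2 minus number 1 of -0.65 ± 0.12 SE, limma adjusted p = 0.0141). Rps27l, a p53 target, was at 42.8, 58.5, 30.0 and 31.8 FPKM, close to Rps27 at 43.3, 81.6, 57.0 and 44.0 FPKM. Rpl7l1 was at 45.0, 49.3, 39.4 and 38.4 FPKM beside Rpl7 at 301, 254, 320 and 327 FPKM. The X-linked Rps4x was at 472, 402, 491 and 493 FPKM, and the annotated pseudogene Rps4l at 46.7, 40.2, 26.1 and 38.1 FPKM. The X-linked genes did not separate Pd1CKO 2 from control 2: the fold was 0.994 for Rpl10, 0.981 for Rpl36a, 0.995 for Rpl39 and 1.003 for Rps4x.

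Pd1CKO was compared with control to ask whether loss of Pd1 changed the ribosomal protein mRNAs, and no member passed. With limma on log2(FPKM + 1), 0 of 84 members were called at an adjusted p of 0.05, and the background over all tested genes was 0% in each direction. At an unadjusted p under 0.05 there were 0 members, where 0.337% of all tested genes (47) reached it, and limma-voom on recovered fragments also called 0 members. The median log2 difference of the members was 0.02, the same as over all tested genes (0.02). These figures do not show that ribosomal protein mRNAs were unaffected, because the spread of the fit holds the difference between numbers.

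Both Pd1CKO libraries lay above both controls in 3 of 84 members (3.57%, background 8.37%), which were Rpl24, Rpl30 and Rpl38. They lay below both controls in 8 of 84 (9.52%, background 6.14%), among them Rpl5, Rpl7a, Rpl10, Rpl12, Rpl19, Rps3a2 and Rps14. Neither share carries a test. The largest positive differences belonged to Rpl38, Rpl30, Rps29, Rpl37 and Rps28, with log2 differences between 0.45 and 0.72, and in each of them Pd1CKO 1 was the highest library. For Rpl38 the difference was 0.72 ± 0.35 SE and for Rps29 it was 0.62 ± 0.55 SE, both with a limma adjusted p of 0.9998, and without Pd1CKO 1 they were 0.28 and -0.13. The 5 largest negative differences belonged to the pseudogenes Rps3a2 and Rps3a3 and to Rpl7a, Rps18 and Rpl21. Rps3a2 was at 7.48, 6.00, 63.0 and 7.46 FPKM, so that its difference of -1.60 ± 1.01 SE rested on control 2 alone and was -0.14 without that library.

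Set side by side within each number, the ratios of the members were spread more widely at number 1 than at number 2, as were those of all tested genes. The log2 ratio of Pd1CKO 1 to control 1 had a median of 0.03 and an interquartile range of -0.14 to 0.28 over the 84 members, and the ratio of Pd1CKO 2 to control 2 a median of -0.01 and a range of -0.05 to 0.02. Over all tested genes the interquartile ranges were -0.15 to 0.21 and -0.07 to 0.08. A fold of FPKM + 1 above 1.5 was found at number 1 in 14 members, 16.7% of them against a background of 3.43%, and at number 2 in 1 member, Rpsa, against 1.26%. A fold below 1/1.5 was found at number 1 in 2 members (background 2.47%) and at number 2 in 3 members (background 1.29%). There is 1 library per genotype within a number, so these ratios carry no test, and the intervals given with them are exact 95% Clopper-Pearson intervals that cover counting error only.

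The tested members that stood furthest above control 1 in Pd1CKO 1 mostly had short coding sequences. An exception was Rpl21, with 480 coding bases and a fold of 1.63 at number 1 in its own row. Rps29, a zinc-binding protein of the small subunit head with 168 coding bases, was at 73.3, 169, 57.4 and 59.3 FPKM. Pd1CKO 1 was 2.30-fold above control 1 (2.13 to 2.48), and the other 3 libraries lay close together. Rps28, with 207 coding bases, was at 42.1, 81.9, 34.5 and 33.3 FPKM, and Rps21, with 249, at 90.2, 170, 72.1 and 61.7 FPKM. Again Pd1CKO 1 was the highest of the 4, 1.95-fold (1.82 to 2.08) and 1.89-fold (1.77 to 2.02) above control 1.

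The large subunit showed the same order. Rpl38, with 210 coding bases, was 2.20-fold higher in Pd1CKO 1 than in control 1 (2.01 to 2.41). Rpl39, a protein lining the peptide exit tunnel with 153 coding bases, was 1.89-fold higher (1.75 to 2.05), and Rpl37, with 291, was 1.91-fold higher (1.80 to 2.02). Rpl35, which sits at the mouth of that tunnel and has 369 coding bases, was at 89.1, 162, 81.5 and 79.2 FPKM. Rpl41, with 75 coding bases the shortest of all, was at 253, 384, 220 and 226 FPKM, a fold of 1.52 (1.47 to 1.57) and thus less than that of several longer genes. For Rpl39, Rpl37, Rpl35 and Rpl41 the fold at number 2 was 0.995, 1.003, 0.972 and 1.03. In the authors' deposited table of pair 1 ratios, 3 of 86 members were listed above 2, which were Rps29 at 2.30, Rpl38 at 2.20 and the barely detected Rpl39l at 2.97, while 7.96% of that table's 21532 genes were.

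Members with long coding sequences lay on the other side. Rpl7a, with 798 coding bases, was at 231, 121, 144 and 141 FPKM, 0.526-fold in Pd1CKO 1 (0.506 to 0.546), and here control 1 was the high library while the other 3 were alike. Rpl10, with 642 coding bases, was at 357, 277, 316 and 314 FPKM, and in this gene Pd1CKO 1 was the low one. Rpl4 and Rpl3, the longest of the members that passed the filter with 1257 and 1209 coding bases, had folds of 0.926 (0.907 to 0.946) and 0.940 (0.920 to 0.960).

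Over the 79 tested members with an annotated coding sequence, the log2 ratio at number 1 had a Spearman correlation of -0.875 with coding length. It was -0.876 in the 47 genes of the large and -0.871 in the 32 genes of the small subunit. At number 2 the correlation was 0.03 (-0.21 and 0.37 in the subunits). These correlations are across genes of 1 pair of libraries, they were computed after the values had been seen, and genes that share a library are no replicates. By length class, the median log2 ratio at number 1 was 0.90 in 10 genes under 300 bases, 0.24 in 28 genes from 300 to 450, -0.03 in 19 genes from 450 to 600 and -0.19 in 22 genes of 600 or more. At number 2 these medians were 0.01, -0.03, -0.02 and -0.01. Of the 38 members under 450 bases, 38 were higher in Pd1CKO 1 than in control 1 (54.7% over all tested genes) and 15 were higher in Pd1CKO 2 than in control 2 (50%). Of the 22 with 600 or more, 1 was higher at number 1, and this was the paralog Rpl7l1.

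**Figure D2:**
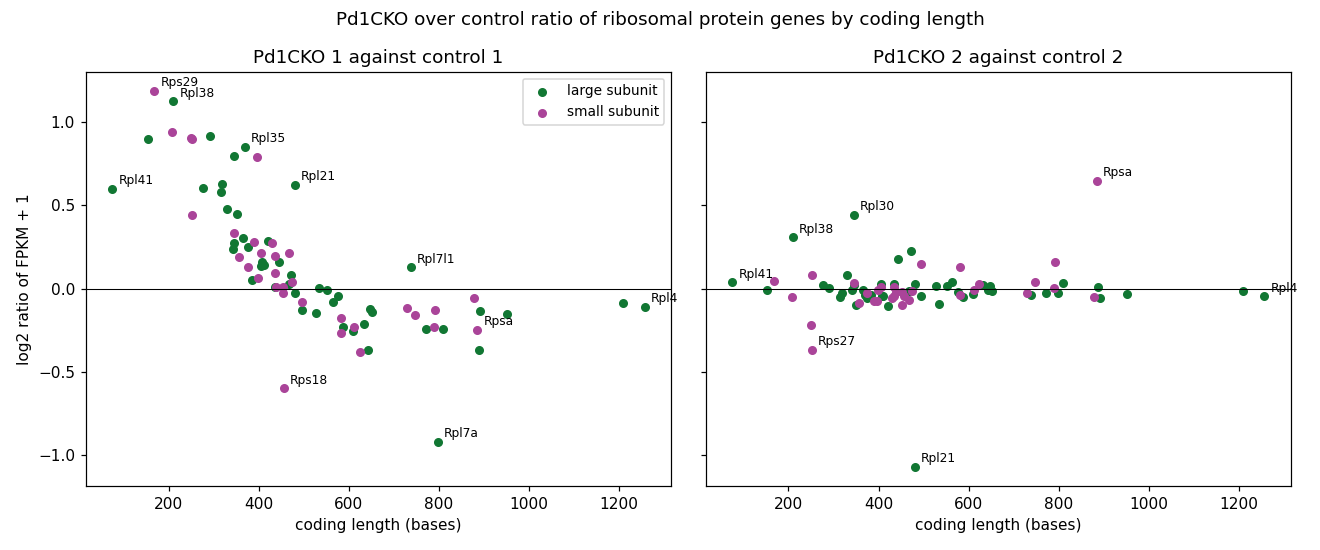
Log2 ratio of FPKM + 1 of Pd1CKO over control (vertical axis) against coding length in bases (horizontal axis) for 79 ribosomal protein genes, number 1 on the left and number 2 on the right; each point is a gene, green for the large and purple for the small subunit. On the left the points fall from above 1 for Rps29 and Rpl38 to below 0 for long genes, with Rps18 and Rpl7a lowest; on the right most lie near 0 apart from Rpsa, Rpl30, Rpl38, Rps27 and Rpl21.

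The position of Pd1CKO 1 among the 4 libraries followed the same line. These orders were counted in the members alone, so no share over all tested genes stands beside them. Pd1CKO 1 was the highest library in 35 of the 38 members under 450 coding bases and the lowest in none of them. Among the 22 members of 600 or more it was the lowest in 10 and the highest in 1, and control 1 was the highest in 16. Accordingly, the log2 difference between the numbers correlated with coding length in the Pd1CKO libraries (Spearman 0.595) and hardly in the controls (-0.09). The ratio at number 1 also had a Spearman correlation of -0.53 with mean FPKM, -0.26 with exon length and -0.09 with GC content over the same 79 genes.

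The slope over other genes of this coding length was near 0. Over 5215 other tested genes no longer than the longest member, the Spearman correlation with coding length at number 1 was 0.07. In these genes the ratio correlated at 0.30 with exon length, -0.39 with GC content and -0.20 with mean FPKM. With other tested genes of any coding length, the correlation with coding length was 0.34, opposite in sign to that of the members. Over all other tested genes with a coding sequence, medians in the 4 length classes were 0.02, -0.07, -0.08 and 0.05 (248, 561, 724 and 10122 genes). By length of the whole principal mRNA, however, the 70 other genes under 500 bases had a median log2 ratio of 0.22, and 49 of them were higher in Pd1CKO 1. The 10 members of that class had a median of 0.77. From 500 to 700 bases the medians were 0.15 in 18 members and -0.005 in 160 other genes, and from 700 to 1000 bases -0.12 in 25 and -0.14 in 429. From 1000 to 2000 bases they were -0.10 in 20 members and -0.12 in 2384 other genes. At 2000 bases or more they were above 0 again, 0.09 in 6 members and 0.09 in 8660 other genes. The shift of very short mRNAs at number 1 was thus seen outside the family too, at a smaller size. The lists of other cell types also differed at number 1: the 6 meningeal markers summed to 46.1 FPKM in control 1 and 84.1 in Pd1CKO 1 (6 of 6 higher), and the 8 postmitotic neuron markers to 1723 and 1189 FPKM (2 of 8 higher). No marker was at 0, and their part in the ratios was not tested.

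Libraries of number 2 held less ribosomal protein mRNA than those of number 1. The fit of number 2 against number 1 called 24 of 84 members lower, 28.6% of them against a background of 18.5%, and 1 higher against a background of 16.5%. Both libraries of number 2 lay below both of number 1 in 51 of 84 members (background 34.1%) and above both in 7 (background 38.5%). The median log2 difference was -0.29 in the members and 0.03 over all tested genes. In controls alone it was -0.21 and in Pd1CKO alone -0.34. Medians of the large and small subunit members were -0.28 and -0.36. After removal of trends with length and GC content the median of the members was -0.081, with 20 called lower and 9 higher. The number of members called was 9 with no filter, 15 without control 2, 16 without Pd1CKO 2, 51 without Pd1CKO 1 (44 lower, 7 higher) and 55 without control 1 (46 lower, 9 higher).

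A few genes moved far more than the rest. Rpl13, a large subunit protein, was at 342, 296, 68.0 and 68.9 FPKM, and number 2 fell by 2.20 ± 0.10 SE on the log2 scale (limma adjusted p = 0.00051). Rps27a, made as a fusion with ubiquitin, was at 122, 142, 33.0 and 31.3 FPKM and fell by 2.00 ± 0.11 SE (limma adjusted p = 0.00061). Rps2, which lines the mRNA entry of the small subunit, was at 883, 848, 305 and 294 FPKM and fell by 1.53 ± 0.10 SE (limma adjusted p = 0.00088). In all 3 the libraries of a number were within a narrow range and the numbers did not overlap. Beside these, Rps19 fell by 0.82 ± 0.10 SE (limma adjusted p = 0.0039) and Rplp1 by 0.68 ± 0.12 SE (limma adjusted p = 0.0126). Rps20 fell by 0.43 ± 0.10 SE (limma adjusted p = 0.0267).

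Rps18 was the single member called higher in number 2 in this fit, and other settings called 1 to 9. It was at 36.9, 24.04, 158 and 153 FPKM, a log2 difference of 2.35 ± 0.20 SE (limma adjusted p = 0.0017). The next highest differences did not pass: Rps3a2 at 1.60 ± 0.90 SE, Rpl23a at 0.30 ± 0.09 SE, Rpl22 at 0.25 ± 0.08 SE and Rpl7 at 0.23 ± 0.12 SE, with limma adjusted p from 0.0518 to 0.216. After removal of length and GC trends Rpl23a and Rpl22 passed, with limma adjusted p of 0.0082 and 0.0287, and with copies summed the difference of Rpl23a was 0.047. Rps29 and Rps21 had log2 differences of -0.92 ± 0.37 SE and -0.88 ± 0.30 SE with limma adjusted p of 0.109 and 0.0692, and in both the gap was wider in the Pd1CKO libraries than in the controls.

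**Figure D3:**
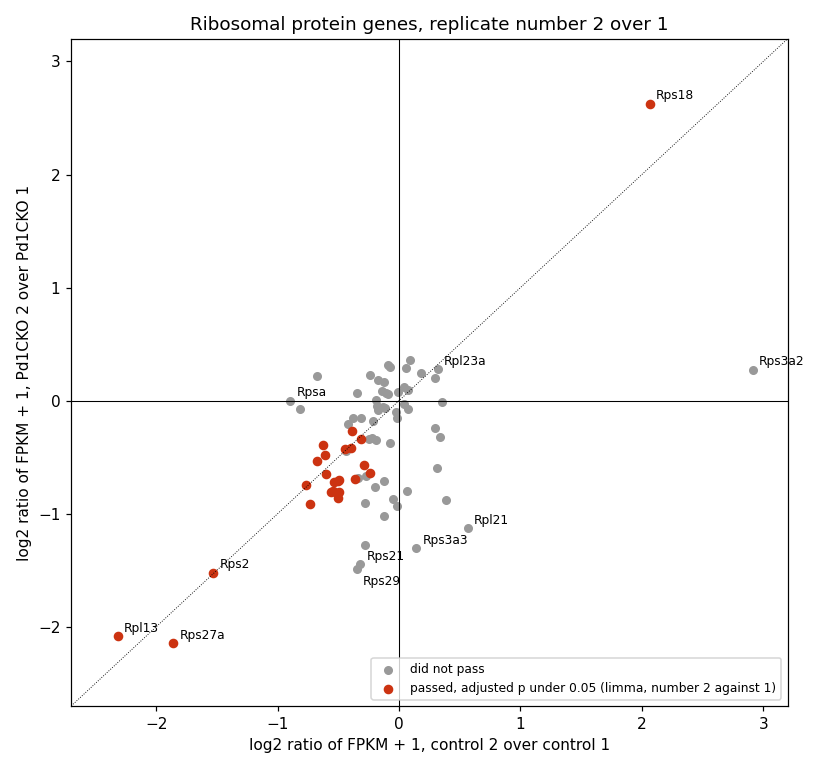
Log2 ratio of FPKM + 1 of number 2 over number 1 in the controls (horizontal axis) and in the Pd1CKO libraries (vertical axis) for 84 ribosomal protein genes; red points passed the limma test of number and the dotted line marks equal change. Rpl13, Rps27a, Rps2 and Rps18 lie far out near the line, Rps3a2 far to the right of it, and Rps29 and Rps21 below it.

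Summed levels of cell type markers differed by number as well. Their calls are to be read against the 18.5% called lower and 16.5% called higher over all tested genes. The 8 postmitotic neuron markers summed to 1189 to 1723 FPKM in number 1 and 2189 to 2238 FPKM in number 2, and 5 were called higher in number 2. The 8 radial glia markers summed to 841 to 892 FPKM and 591 to 609 FPKM (6 called lower, 2 higher), and the 6 telencephalon markers to 463 to 490 FPKM and 259 to 268 FPKM (5 called lower). The 6 meningeal markers went from 46.1 to 84.1 FPKM down to 1.99 to 2.88 FPKM (6 called lower), the 9 erythroid markers from 2088 to 2125 FPKM to 1153 to 1241 FPKM (5 called lower, 2 higher) and the 4 endothelial markers from 46.6 to 53.3 FPKM to 25.2 to 25.96 FPKM (3 called lower). The 5 microglial markers stayed between 7.87 and 11.0 FPKM in all libraries, with 0 called. None of these markers was at 0 in any library, and their part in the lower ribosomal protein levels was not tested.

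Near-identical copies took a share of the fragments that differed between libraries and changed the picture for single genes. A copy was any other transcript that matched at least 80% of a member's coding sequence at 95% identity or more. Other members and genes that overlap the member's own locus were left out, and each copy was counted for its best-matching member alone. The annotated pseudogenes among the members, such as Rps3a2, were thus not summed as copies. Of 557 such copies, 412 had rows in the table, for 75 of the 87 members, and only these could be summed. They held 8.72, 8.41, 9.95 and 8.22% of the fragments of members and copies together. The sources used here do not say how the authors' counting assigned reads that match several places, so levels of single members are uncertain where copies exist. Coding stretches of 60 bases are shown for 3 genes whose copies bear on the results below, 5′ to 3′, with the differing base in capitals.
Rps18, on chr17:33951999-33956001, minus strand: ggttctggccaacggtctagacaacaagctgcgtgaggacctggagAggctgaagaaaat
Rps18-ps3, chr8:107262793-107263248, minus strand: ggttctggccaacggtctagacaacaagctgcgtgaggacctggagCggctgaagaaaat
Rpsa, on chr9:120127689-120132369, plus strand: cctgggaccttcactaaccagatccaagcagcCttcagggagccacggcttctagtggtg
Rpsa-ps10, chr3:150072658-150073542, minus strand: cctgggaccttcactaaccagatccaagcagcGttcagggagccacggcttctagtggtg
Rpl38 and Rpl38-ps2, identical here: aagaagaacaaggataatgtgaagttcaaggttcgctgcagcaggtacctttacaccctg
Coordinates are mm10, and positions count from 1 at the first base of the member's start codon. The windows cover positions 291 to 350 of Rps18, where the copy carries A337C, 313 to 372 of Rpsa, where it carries C345G, and 76 to 135 of Rpl38, where there is no difference. Over the whole coding sequence Rps18-ps3 differed from Rps18 at 3 of 456 aligned bases, Rpsa-ps10 from Rpsa at 6 of 885 and Rpl38-ps2 from Rpl38 at 0 of 210.

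Rps18-ps3 was at 249, 133, 10.02 and 4.12 FPKM, the reverse of Rps18. Copies held 62.5 and 62.7% of the Rps18 family's fragments in control 1 and Pd1CKO 1, against 3.27 and 1.58% in control 2 and Pd1CKO 2. With copies summed, the Rps18 family was at 241, 158, 401 and 382 fragments per 1000000 of the library, and its log2 difference of number 2 minus number 1 was 0.99 ± 0.20 SE (limma adjusted p = 0.0153) in place of 2.35. Rpl13 and Rps2 did not have this pattern, since their copies held at most 5.51 and 9.67% in any library, and their differences with copies summed were -2.25 and -1.57. For Rps27a it was -1.66.

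Rpsa, the laminin receptor precursor whose loss causes congenital asplenia, was at 460, 387, 247 and 387 FPKM, with control 2 low. Rpsa-ps10 was at 65.4, 48.2, 476 and 35.4 FPKM, with control 2 high. The fold of Pd1CKO 2 over control 2 was 1.57 (1.54 to 1.60) for the Rpsa row and 1.05 (1.03 to 1.07) with copies summed. Rpl38 and Rpl30 behaved alike at number 2: folds of 1.24 (1.12 to 1.38) and 1.37 (1.29 to 1.46) became 0.964 (0.875 to 1.06) and 0.974 (0.925 to 1.03). Rpl30, a large subunit protein that in yeast regulates the splicing of its own transcript, was at 44.2, 77.7, 34.9 and 47.8 FPKM. At number 1 the Rpl38 fold stayed at 2.17 (2.002 to 2.36) with copies summed, and that of Rpl30 went from 1.76 to 1.38 (1.33 to 1.44). Thus of the 3 members with both Pd1CKO libraries above both controls, Rpl38 and Rpl30 no longer had a higher value at number 2 once copies were counted with them. The third, Rpl24, turned at number 1 instead, from a fold of 1.10 (0.637 to 1.90) to 0.597 (0.4996 to 0.711), while at number 2 it was 1.02 (0.764 to 1.37) with copies.

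**Figure D4:**
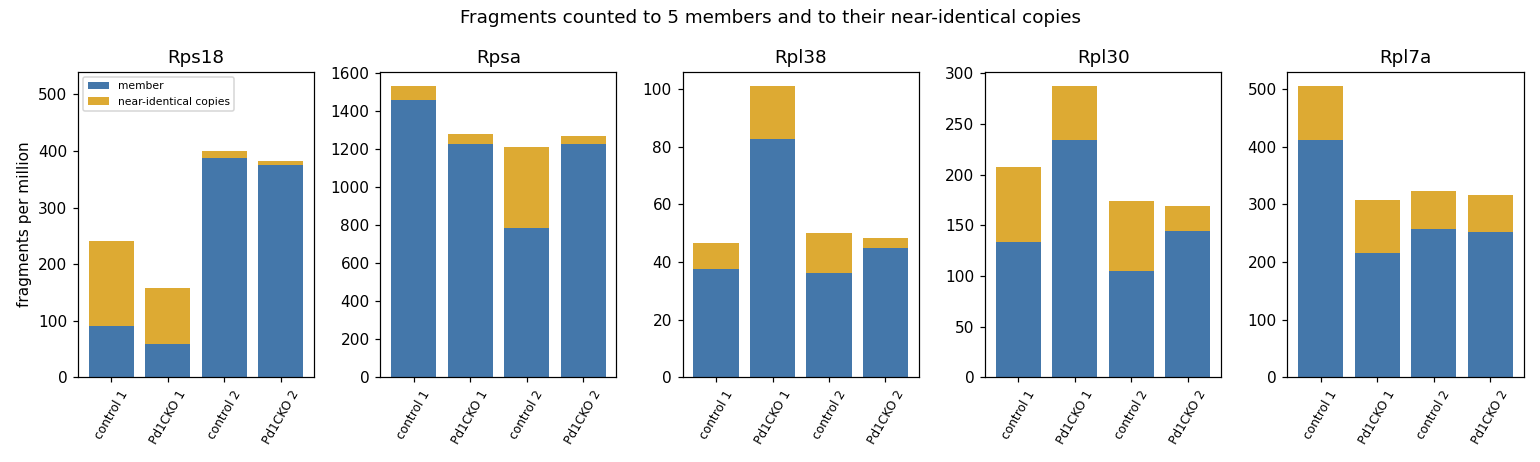
Counted fragments per 1000000 of the library (vertical axis, from 0) of 5 ribosomal protein genes (blue) and, stacked on top, to all their near-identical copies (yellow), in each of the 4 libraries. In Rps18 the yellow part dominates in number 1, in Rpsa it is large in control 2 alone, and in Rpl38 the Pd1CKO 1 bar stays the tallest with copies included.

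For the weakest constitutive genes the copies held most of the fragments counted to member and copies together. Genes overlapping the locus of the member were not in this sum. Copies made up 91.9, 85.0, 75.6 and 68.9% of the Rpl24 family, with 2 copies in the table, and 89.1, 83.5, 87.4 and 93.3% of the Rpl21 family, with 40. On the depth scale used for the Rps18 family above, the Rpl24 family with copies was at 18.5, 11.0, 5.56 and 5.69 fragments. The Rpl21 family was at 184, 198, 249 and 197 fragments on that scale. The Rpl24 family thus stayed low with these copies summed, and the reason was not tested. The fold of Rpl21 at number 2, 0.418 (0.357 to 0.489) in its own row, was 0.792 (0.757 to 0.829) with copies. In Rpl7a, with 26 copies, the fold at number 1 was 0.526 alone and 0.609 (0.589 to 0.629) with copies, so the gene stayed lower in Pd1CKO 1. Over the 79 members with copies summed, 15 passed a fold of 1.5 in either direction at number 1 and 0 at number 2, where log2 ratios ran from -0.34 to 0.18. Unlike the earlier counts, these folds are of fragments scaled by depth and not of FPKM + 1. No share over all tested genes was counted on this scale, here or for the short genes next. The Spearman correlation with coding length was -0.882 at number 1 and 0.16 at number 2, and 38 and 9 of the 38 short genes were higher in Pd1CKO. The relation to length at number 1 was thus as large with copies as without.

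Other genes of the translation machinery gave the setting. No gene of the lists below was called by genotype. Fau, a ribosomal protein gene fused to a ubiquitin-like sequence, was at 475, 503, 346 and 343 FPKM. Both libraries of number 2 lay below number 1, with a log2 difference of -0.50 ± 0.09 SE (limma adjusted p = 0.0138), the same direction as Rps27a. Of the 77 mitochondrial ribosomal protein genes, 36 were called lower and 0 higher, where 18.5 and 16.5% of all tested genes were, and their median was -0.31. Mrps34 had the widest gap of them, at 24.5, 22.7, 0.479 and 0.321 FPKM. At number 1 the mitochondrial genes had a median log2 ratio of -0.08, and 23 of 77 were higher in Pd1CKO 1.

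The other lists had calls in both directions or few calls, to be read against the 18.5% lower and 16.5% higher over all tested genes, and nothing particular to a list was tested. Of 18 translation factors and other known TOP mRNAs, 4 were called lower in number 2 and 2 higher, and the initiation factors Eif3f and Eif4a2 stood for the 2 directions with 126, 99.6, 58.6 and 58.4 FPKM and 61.8, 67.3, 93.6 and 99.9 FPKM. Of 6 small nucleolar RNA host genes with TOP starts, 2 were called lower, Snhg6 and Snhg8. Of 30 ribosome biogenesis genes 7 were called lower, among them Gar1, a component of pseudouridylation particles, at 35.7, 44.1, 13.5 and 14.3 FPKM, and 1 higher, Taf1b. Of 14 genes of mTORC1 and TOP control 4 were called lower and 2 higher. Eif4ebp1, the translation repressor that mTORC1 inactivates, was at 7.31, 5.37, 0.619 and 0.604 FPKM, with both libraries of number 2 far below number 1.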

How the data were processed

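The FPKM values were made and deposited by the authors, with no unit in the header. They were read as FPKM because, multiplied by exon length, they are whole multiples of 1 step per library (97.1 to 97.4% of values below 200 fragments within 0.1). The ratio of Pd1CKO 1 to control 1 is also the authors', deposited without a pseudocount. The submitters' processing notes name mm10, FastQC, fastp, HISAT2, TopHat, StringTie and featureCounts without roles; the sources used here do not say whether strand was used. Members and lists were chosen with earlier results of these data known, and some genes are not reported here. Named genes are paralogs with their partners, the 5 highest and 5 lowest differences by genotype and by number, the 3 highest and 3 lowest levels, and disease genes; others, including those picked from the lists and by coding length, were chosen after their values were seen.

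limma 3.58.1 (R 4.3.3, limma-trend) was fitted on log2(FPKM + 1) for the 13927 genes whose mean reached 1 FPKM, with either genotype or number as term and p-values adjusted by Benjamini-Hochberg over all of them, and was tested on simulated data. This scale understates changes of weak genes. Folds within a number come from fragments recovered with Gencode M21 exon lengths (99.8% of genes matched). Without molecular identifiers, intervals cover counting error only. Copies were found with BLAST 2.17.0, and Python 3.11.15 was used for summaries. The alternatives were a pseudocount of 0.1, no filter, median-centring, removal of length and GC trends, limma-voom, the replicate block, copies summed (added after seeing the data) and each library left out.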

Additional observations from a re-analysis of the deposited data

How the results depend on the processing

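No member was called by genotype under any alternative run. The replicate numbers are shared across genotypes, and the deviations of same-numbered libraries correlated at 0.799, but the labels do not say that a number marks a pairing; with the number as a replicate block, 0 members were called and the median stayed at 0.02. The median genotype difference (0.02) was -0.020 after median-centring and -0.11 to 0.18 with 1 library left out. Leaving out 1 library, the genotype difference reversed in Rps29 (-0.13 to 1.36), Rpl37 (-0.0036 to 0.93), Rps28 (-0.19 to 1.08), Rps18 (-1.63 to 0.99), Rpl21 (-0.79 to 0.34) and Rps3a3 (-1.22 to 0.087). The 25 members called by number became 9 with no filter, 15 to 55 with 1 library left out (15 without control 2, 16 without Pd1CKO 2, 51 without Pd1CKO 1 and 55 without control 1) and 29 with limma-voom. The median number difference (-0.29) was -0.081 after removal of length and GC trends. The share of summed FPKM in control 2 (5.93%) was 6.32% without hemoglobin and mitochondrially encoded genes. The cause of these shifts was not tested. With 1 library left out, the lone library of its group is assumed to vary like the others. Depth limits Rpl3l, Rpl39l and Rpl36al, whose rows hold few fragments.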
